A study of Mus musculus with 40 samples.

Results

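Cloned mouse embryos at the 1-cell stage were compared with parthenogenetic embryos of the same stage across all genes of the array. The cloned embryos were B6D2 embryos made by somatic cell nuclear transfer (SCNT) with cumulus cells as nucleus donors, of female origin and without amanitin. They were represented by 3 arrays, replicates 1, 3 and 4, because the column of replicate 2 holds no values. The parthenogenetic group was 4 arrays of B6D2 1-cell embryos, for which the labels name no sex, culture medium or activation agent. The comparison thus used 7 of the 39 arrays with values in a series of 40 samples, which were chosen by their titles. The labels give MEMα medium for 2 of the 3 SCNT samples. Medium and origin cannot be told apart. The other groups are fertilized embryos, 4 arrays at the 1-cell stage, SCNT and fertilized embryos treated with amanitin, which blocks RNA polymerase II, and the same kinds of embryo at the 2-cell stage. For 1 of the 4 amanitin SCNT arrays at the 1-cell stage the treatment rests on the letter A in its title. The labels do not say how many embryos went into an array or that replicates came from separate females, so p-values measure only the spread between these samples. In such bulk samples fewer embryos carrying a transcript and less of it in each embryo cannot be told apart.

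In SCNT the egg's own chromosomes are removed and replaced by the nucleus of a body cell, and the reconstructed egg is then activated artificially. A parthenogenetic embryo also begins by artificial activation of an unfertilized egg, but keeps the maternal chromosomes and receives no other nucleus. The donor nucleus arrives with the chromatin of a differentiated cell, while the cytoplasm in both cases is that of the egg, filled with stored maternal mRNA. In mouse the embryonic genome is transcribed only weakly at the 1-cell stage and in its major wave at the 2-cell stage. Much of what changes in abundance before then is stored mRNA whose poly(A) tail or stability changes. The comparison thus sets side by side artificially activated eggs that differ in the nucleus they carry and in the handling it requires.

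Values are log2 array intensities after quantile normalization, so a difference of 1 is 2-fold, and differences are SCNT minus parthenogenetic. The 3 SCNT arrays correlated with each other at 0.970 to 0.972 across genes, the 4 parthenogenetic arrays at 0.973 to 0.975, and arrays of different groups at 0.951 to 0.960. On a principal component analysis of the 19 arrays of 1-cell embryos, the SCNT arrays lay between 18.03 and 26.66 on component 1 and the parthenogenetic arrays between -25.1 and -21.8. The 4 SCNT arrays with amanitin lay at 22.8 to 31.8, beside the untreated ones. Oocyte markers were present in both groups, since all 8 were above the median signal of 5.34 on every array. The spermatid and blood markers summed to 141 to 203 and 127 to 170 units of deposited intensity on SCNT arrays, against 114 to 216 and 110 to 183 on parthenogenetic arrays.

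**Figure D1:**
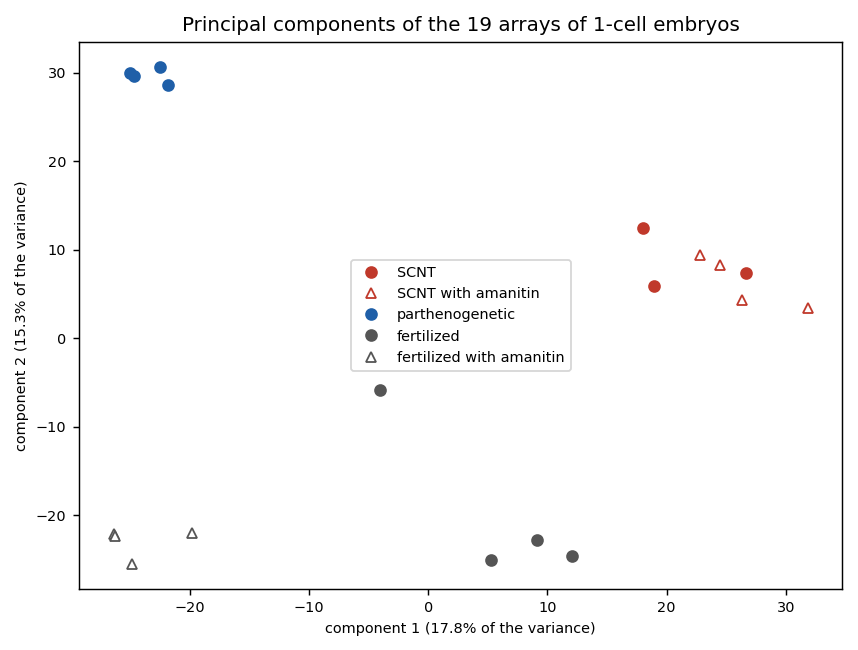
Principal components of the 19 arrays of 1-cell embryos, with component 1 (17.8% of the variance) on the horizontal and component 2 (15.3%) on the vertical axis. Each point is an array; SCNT arrays lie at 18.03 to 26.66 on component 1 and parthenogenetic arrays at -25.1 to -21.8.

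The groups also differed in the control transcripts that are added to the RNA. The poly(A) control transcripts read 3.58 to 3.71 on the SCNT arrays against 7.31 to 7.57 on the parthenogenetic arrays (exact permutation test, 2-sided p = 0.0571, the smallest that 3 against 4 arrays allow). They were equally low on the 1-cell SCNT arrays with amanitin, at 3.65 to 3.85. On the untreated fertilized 1-cell arrays they read 5.7 to 6.5, apart from both groups. Handling of the arrays and the origin of the embryos cannot be told apart, which also holds for the fertilized levels given below. The hybridization controls read 9.45 to 9.54 against 9.83 to 10.01, and the 3' and 5' control probe sets of beta-actin and Gapdh were also lower on every SCNT array, by mean differences of -0.70 to -0.39 (exact p = 0.0571 for each). The probe set for 18S rRNA read 13.11 to 13.20 in SCNT against 12.83 to 13.30 in parthenogenetic embryos, with overlapping ranges. The 3' minus 5' difference of the beta-actin probe sets, a sign of RNA or cDNA length, was 2.20 to 2.36 against 1.86 to 2.28, and that of Gapdh was 2.32 to 2.56 against 2.19 to 2.42.

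Limma called 2117 of 14916 genes (14.2%) at an adjusted p under 0.05, of which 1044 (7.0%) were higher and 1073 (7.19%) lower in SCNT embryos. The called differences had a median size of 0.69, and 427 genes (2.86%) differed by at least 2-fold, 276 of them higher and 151 lower. The arrays of the groups did not overlap in 4894 genes (32.8%), which included 2061 of the called ones. The median difference of all genes was 0.02. The split of the calls depended on the scaling: 1449 were higher and 1072 lower in the values as deposited, where the median was 0.12, and 768 higher and 1591 lower after centring arrays on their medians, where it was -0.04. Setting each group beside fertilized 1-cell embryos in the same fit, the SCNT group had 829 called genes (5.56%) and the parthenogenetic group 3040 (20.4%). These counts share the fertilized arrays with each other and the SCNT or parthenogenetic arrays with the comparison above. The fertilized group is given below as a level, and its replicate 1 lay apart from the other 3 on component 2, at -5.83 against -25.0 to -22.8.

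The 12 largest increases in SCNT embryos were led by Sgk1, the serum- and glucocorticoid-regulated kinase. It read 7.99, 7.40 and 7.87 on the SCNT arrays, against 5.15, 5.03, 4.81 and 4.07 on the parthenogenetic arrays, a difference of 2.99 (SE 0.35, adjusted p = 6.14e-08). The groups were far apart, and fertilized embryos, at 6.14 ± 0.49 (SD, n = 4), lay between them. Hint1, a purine phosphoramidase, read 11.01, 10.85 and 10.47 against 8.88, 8.92, 8.84 and 8.43, a difference of 2.01 (SE 0.26, adjusted p = 6.03e-07). This probe set is bright in both groups, well above the median signal, but another probe set of Hint1 differed by only 0.42. Nefl, the neurofilament light chain, read 7.08, 5.37 and 5.68 against 3.36, 3.61, 3.56 and 4.09 (2.39, SE 0.45, adjusted p = 0.000184). Another probe set of Nefl differed by only 0.28. Efcab2, an EF-hand protein (2.45, SE 0.50), Fam47e (2.03, SE 0.42) and Ndufaf5, an assembly factor of respiratory complex I (2.00, SE 0.35), were also higher, with means of 3.43 to 4.18 in parthenogenetic embryos. Those means lie under the median signal of 5.34, where the added constant affects the difference (with a constant of 22.1 in place of 6.9, called the larger constant below, Nefl differed by 1.57, Efcab2 by 1.51 and Defa31 by 1.27), and 200 of the 2117 called genes had such a group mean. Defa31, a defensin of Paneth cells, differed by 1.98 (SE 0.36) on a probe set that can match related defensins.

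The metallothioneins, small cysteine-rich proteins that bind zinc and copper and are induced by metals, glucocorticoids and oxidants, were both among the 12. Mt2 read 9.84, 8.64 and 9.48 in SCNT against 6.75, 6.75, 7.02 and 6.80 in parthenogenetic embryos, a difference of 2.49 (SE 0.18, adjusted p = 5.56e-13). Mt1 read 7.60, 6.66 and 7.28 against 4.86, 5.21, 3.82 and 4.54 (2.57, SE 0.30, adjusted p = 7.27e-08). Every SCNT array was above every parthenogenetic array in both genes, which the choice of the 12 required. Fertilized embryos averaged 8.72 ± 0.11 for Mt2 and 6.71 ± 0.36 for Mt1 (SD, n = 4), so that the parthenogenetic embryos had the lowest level of the 3 kinds. A further probe set listed for Mt1 differed by -0.03, and the probe set used may also detect related transcripts. The promoters of these neighbouring genes are shown because metal response elements, the sites of the zinc sensor MTF1, are the known control of this pair. They are the RefSeq windows of GRCm38.p6 from 250 bases before to 50 after the start, chr8:94178839-94179138 for Mt1 and chr8:94172368-94172667 for Mt2, both on the plus strand. Capitals mark TGCACNC or TGCGCNC on either strand, which occurs 3 and 4 times.
Mt1: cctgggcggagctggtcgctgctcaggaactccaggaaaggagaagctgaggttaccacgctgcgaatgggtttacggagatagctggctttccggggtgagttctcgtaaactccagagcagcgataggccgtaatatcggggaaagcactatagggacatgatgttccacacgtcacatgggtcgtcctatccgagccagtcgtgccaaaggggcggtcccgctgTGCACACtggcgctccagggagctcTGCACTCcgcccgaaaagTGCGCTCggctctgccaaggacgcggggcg
Mt2: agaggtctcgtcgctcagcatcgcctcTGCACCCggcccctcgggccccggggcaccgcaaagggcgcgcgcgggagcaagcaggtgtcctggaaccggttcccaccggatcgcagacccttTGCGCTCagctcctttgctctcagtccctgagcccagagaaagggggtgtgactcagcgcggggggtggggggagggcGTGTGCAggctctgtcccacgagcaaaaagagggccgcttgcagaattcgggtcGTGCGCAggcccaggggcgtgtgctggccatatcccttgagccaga
Of 32851 promoter windows of that length, 25.7% hold the motif at least once and 1.97% at least 3 times. A match is a description of the letters and not a measured site.

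Heat-shock proteins and chaperones, which fold new and damaged proteins, had more members higher than lower in SCNT embryos. Of 50 members on the arrays with signal, 17 rose, 2 fell and 31 had no call, with a median difference of 0.28 beside 0.02 for all genes, of which 7.0% rose and 7.19% fell. After median centring 12 rose and 4 fell, with a median of 0.16, and without SCNT replicate 3 the decreases numbered 1. Hspa1b, an inducible HSP70 that is one of the first genes transcribed by mouse embryos, read 9.17, 8.70 and 8.88 against 7.42, 7.37, 7.22 and 6.78 (1.72, SE 0.19, adjusted p = 2.57e-08). The constitutive HSP70 Hspa8 read 11.08, 10.97 and 10.91 against 9.45, 9.47, 9.40 and 9.29 (1.58, SE 0.17), with 1 of 3 other probe sets at -0.45. Dnaja1, an HSP40 partner of HSP70, read 11.94, 11.60 and 11.71 against 10.11, 10.24, 10.06 and 10.22 (1.59, SE 0.13, adjusted p = 1.95e-11). Its 2 other probe sets differed by 0.53 and 0.71. In the probe sets used for Hspa1b, Hspa8 and Dnaja1 the groups did not overlap. The nucleotide exchange factors of HSP70 followed, with Hsph1 at 10.67, 10.33 and 10.71 against 9.01, 9.15, 9.10 and 9.31 (1.42, SE 0.16) and Hspa4 higher by 1.31 (SE 0.25, or 0.60 with adjusted p = 0.111 over the mean of its probe sets). Hspa5, the HSP70 of the endoplasmic reticulum and a main target of the unfolded protein response, read 11.07, 10.90 and 10.72 against 9.63, 9.61, 9.22 and 9.53 (1.40, SE 0.19, adjusted p = 7.75e-07). Its 2 other probe sets differed by 0.60 and 0.70. Of 10 measured genes named for the CCT chaperonin, which folds actin and tubulin, 5 rose and 0 fell, beside 7.0% and 7.19% of all genes. This group was formed after its values were seen and is no separate support.

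Not all chaperones moved that way. Ahsa1, an activator of the HSP90 ATPase, read 11.30, 11.63 and 11.67 in SCNT against 12.33, 12.34, 12.29 and 12.64 in parthenogenetic embryos, a difference of -0.87 (SE 0.12, adjusted p = 8.07e-07). Another probe set of Ahsa1 differed by -0.35. The small heat-shock protein Hspb1 differed by -0.93 (SE 0.25, adjusted p = 0.0088), but without SCNT replicate 3 by -0.81 (adjusted p = 0.0628). Hspa1a, the neighbour of Hspa1b, read 6.20, 5.79 and 5.69 against 4.79, 5.97, 4.87 and 5.31, and its overlapping arrays gave no call (0.66, SE 0.31, adjusted p = 0.175). Dnajb1, another HSP40, was not called (0.09, SE 0.13), and its other probe set differed by -0.67. Fertilized embryos averaged 8.85 ± 0.12 for Hspa1b, 11.94 ± 0.24 for Dnaja1, 11.55 ± 0.23 for Hspa8, 9.87 ± 0.25 for Hsph1 and 10.78 ± 0.39 for Hspa5 (SD, n = 4). The SCNT means of Hspa1b and Hspa5 were 8.92 and 10.90, close to these levels.

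The promoters of Hsph1 and Hspa1b are shown for the heat-shock element and that of Hspa5 for the ER stress element, since these are the sites through which HSF1 and ATF6 are known to act. The windows are chr5:149636287-149636586 on the minus strand for Hsph1, chr17:34959189-34959488 on the minus strand for Hspa1b and chr2:34771840-34772139 on the plus strand for Hspa5, from RefSeq with GRCm38.p6. Capitals mark GAANNTTC or TTCNNGAA in the first 2 and the ER stress element (CCAAT and CCACG with 9 bases between) in the third, on either strand, with overlapping matches joined.
Hsph1: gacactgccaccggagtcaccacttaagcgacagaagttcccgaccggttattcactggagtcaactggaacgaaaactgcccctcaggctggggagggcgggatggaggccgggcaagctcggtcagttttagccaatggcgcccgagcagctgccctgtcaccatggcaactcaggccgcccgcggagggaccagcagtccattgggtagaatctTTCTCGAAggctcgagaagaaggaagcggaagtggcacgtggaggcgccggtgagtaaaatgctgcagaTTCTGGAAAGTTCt
Hspa1b: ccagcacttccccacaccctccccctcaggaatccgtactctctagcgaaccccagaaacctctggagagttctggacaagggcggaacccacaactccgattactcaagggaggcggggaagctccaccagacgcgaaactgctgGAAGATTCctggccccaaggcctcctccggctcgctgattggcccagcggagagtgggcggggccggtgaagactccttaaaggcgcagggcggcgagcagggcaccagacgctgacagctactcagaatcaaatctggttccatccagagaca
Hspa5: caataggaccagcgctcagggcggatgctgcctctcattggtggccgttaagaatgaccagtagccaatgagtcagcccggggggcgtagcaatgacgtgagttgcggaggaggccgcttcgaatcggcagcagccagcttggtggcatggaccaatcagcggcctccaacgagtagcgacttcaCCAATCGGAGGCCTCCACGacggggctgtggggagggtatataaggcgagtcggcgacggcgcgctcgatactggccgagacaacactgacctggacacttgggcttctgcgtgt
Hsph1 holds 3 matches and the others 1 each. The heat-shock motif occurs in 15.1% of all windows and at least 3 times in 0.256%, and the ER stress motif in 0.119%. The window of Hspa4 holds neither motif.

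**Figure D2:**
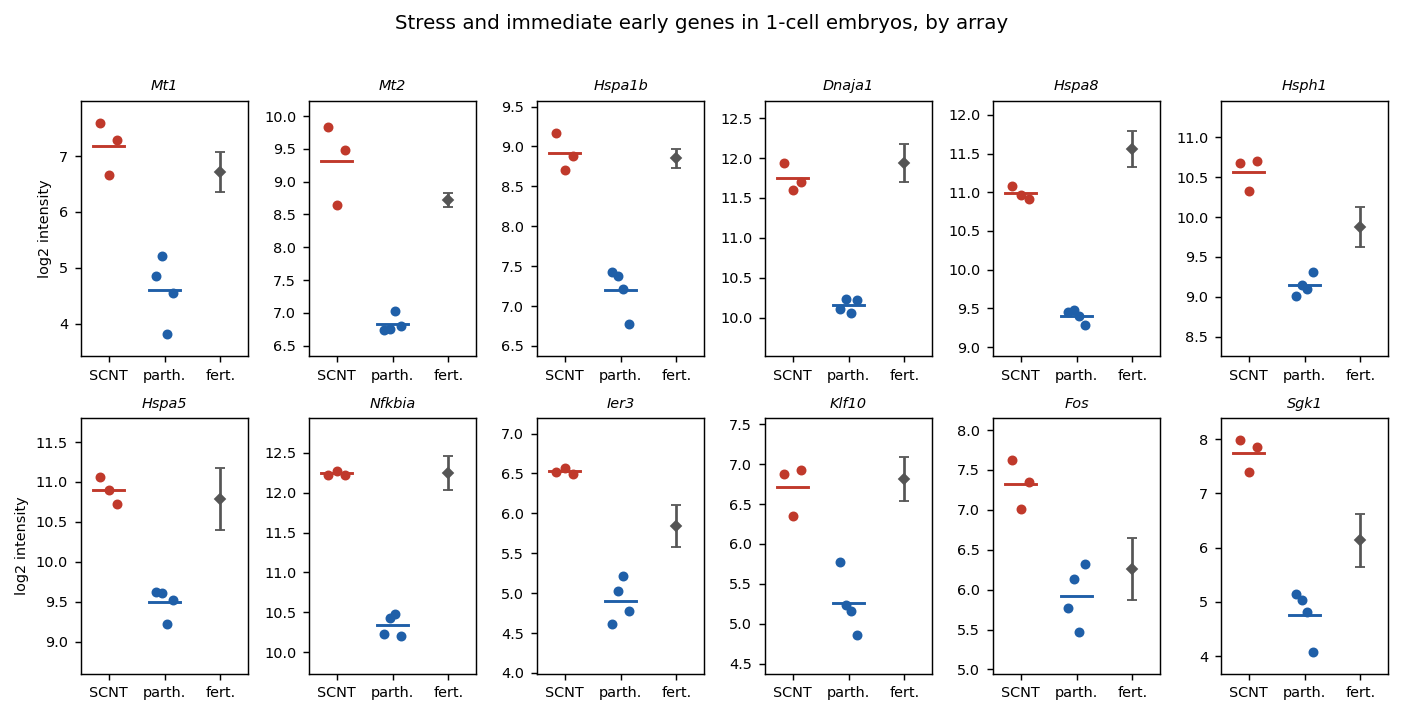
Log2 intensity of 12 stress and immediate early genes in 1-cell embryos, with each SCNT (red, 3) and parthenogenetic (blue, 4) array as a point, group means as lines, and the mean and SD of 4 fertilized arrays in grey. All SCNT points lie above all parthenogenetic points in each panel, as for Mt2 at 8.64 to 9.84 against 6.75 to 7.02. The 12 were picked among genes called higher, so this separation is no added support. List members that fell or were not called, such as Ahsa1, Dnajb1 and Dusp1, are left out.

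Immediate early genes, which are induced within minutes of growth factors or stress without new protein, were higher where they were called. Of 37 measured, 8 rose, 0 fell and 29 had no call by limma, with a median of 0.33. At an unadjusted p under 0.05 the list had 10 higher and 0 lower. The 8 that rose are 21.6% of the list, beside 7.0% of all genes. Ier3 read 6.52, 6.57 and 6.50 against 4.61, 5.03, 5.21 and 4.78 (1.62, SE 0.27, adjusted p = 2.6e-05). Klf10, a TGF-beta inducible repressor, read 6.87, 6.35 and 6.93 against 5.77, 5.24, 5.15 and 4.86 (1.46, SE 0.26). Fos, a part of the AP-1 factor, read 7.62, 7.01 and 7.35 against 5.76, 6.13, 5.47 and 6.32 (1.41, SE 0.30, adjusted p = 0.000731). None of the 3 overlapped between groups. Egr1, a zinc finger factor of the same class, was higher by 0.73 (SE 0.19, but 0.62 with adjusted p = 0.0681 without SCNT replicate 1) and Ier5, a regulator of HSF1 activity, by 1.66 (SE 0.41). The abundant members Dusp1, a MAP kinase phosphatase (-0.19, SE 0.18), and Srf, the serum response factor (-0.09, SE 0.11), were not called. Fertilized embryos averaged 6.26 ± 0.39 for Fos and 6.81 ± 0.27 for Klf10 (SD, n = 4). Without SCNT replicate 1 the increases numbered 5.

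Nfkbia, the inhibitor of NF-kappaB and itself one of its targets, was also higher. It read 12.22, 12.27 and 12.22 on the SCNT arrays against 10.23, 10.43, 10.49 and 10.20 on the parthenogenetic arrays (1.90, SE 0.19, adjusted p = 2.24e-09), with fertilized embryos at 12.24 ± 0.21 (SD, n = 4). Of its 4 other probe sets, 1 went the other way, and they ranged from -0.07 to 1.61. Among p53 targets and integrated stress response genes 5 of 43 rose and 2 fell (median 0.14), with 3 rising without SCNT replicate 1 or 4. The 5 and 2 are 11.6% and 4.65% of the list, beside 7.0% and 7.19% of all genes. Gadd45g, a growth arrest gene, was higher by 1.53 (SE 0.32, adjusted p = 0.00054), and Ddit4, an inhibitor of mTOR, by 0.88 (SE 0.20). Eif2ak4, the kinase GCN2 that senses uncharged tRNA, fell by 0.85 (SE 0.20, adjusted p = 0.00277). The p53 target Cdkn1a, an inhibitor of cyclin-dependent kinases, read 7.25, 6.11 and 6.79 against 6.59, 6.28, 6.94 and 6.52, without a call (0.13, SE 0.26).

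Antioxidant genes were mixed apart from the metallothioneins. Of 43 measured members 9 rose and 5 fell, with a median of 0.07, and the decreases numbered 1 to 3 without SCNT replicate 1, 3 or 4 or parthenogenetic replicate 2, 3 or 4. After median centring 6 rose and 8 fell. The 9 and 5 of the main fit are 20.9% and 11.6% of the list, beside 7.0% and 7.19% of all genes. Txnip, an inhibitor of thioredoxin, read 10.11, 9.93 and 9.83 against 8.43, 8.56, 8.42 and 8.57 (1.46, SE 0.24), and Prdx3, the mitochondrial peroxiredoxin, was higher by 1.15 (SE 0.24). Gpx3, a secreted glutathione peroxidase, fell, with 7.69, 7.88 and 7.92 against 8.92, 8.99, 8.96 and 8.83 (-1.10, SE 0.20, adjusted p = 8.38e-05). Txnip stood at 11.88 ± 0.54 in fertilized embryos and Gpx3 at 8.02 ± 0.62 (SD, n = 4). Of 37 apoptosis genes limma called 0 higher (4 at an unadjusted p under 0.05) and 2 lower, Xiap, an inhibitor of caspases (-0.58, SE 0.16, but -0.49 with adjusted p = 0.0729 without SCNT replicate 3), and Apaf1, a part of the apoptosome (-0.53, SE 0.14, or -0.36 with adjusted p = 0.269 over the mean of its probe sets). Those 2 are 5.41% of the apoptosis list, beside 7.19% of all genes.

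The largest group of increases belonged to ribosome assembly and rRNA synthesis. Of 100 measured factors 38 rose, 3 fell and 59 were not called, with a median of 0.36, and under the other scalings 33 to 44 rose and 3 to 4 fell. Among all genes 7.0% rose and 7.19% fell. Nmd3, the export adapter of the large subunit, read 10.69, 10.56 and 10.39 in SCNT against 8.67, 9.00, 8.71 and 8.56 in parthenogenetic embryos (1.81, SE 0.14, adjusted p = 3.63e-12). Its 2 other probe sets differed by 0.12 and 1.34. Tsr1, a maturation factor of the small subunit, read 9.17, 9.03 and 9.19 against 7.68, 7.60, 7.14 and 7.58 (1.63, SE 0.15, adjusted p = 5.26e-10). Gnl2, a nucleolar GTPase, read 8.20, 8.05 and 8.36 against 7.05, 7.22, 6.06 and 6.61 (1.47, SE 0.25). In each the groups did not overlap. Nmd3 averaged 10.58 ± 0.20 in fertilized embryos, near the SCNT level, Tsr1 7.97 ± 0.15, nearer to the parthenogenetic one, and Gnl2 9.13 ± 0.21, above both (SD, n = 4). Rrp9, a protein of the U3 snoRNP, fell, with 4.14, 4.38 and 5.61 against 6.29, 6.95, 5.95 and 6.91 (-1.81, SE 0.38). Npm1, the abundant nucleolar phosphoprotein, was not called (-0.24, SE 0.09, adjusted p = 0.0577).

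Cytosolic ribosomal proteins were higher in 12 of 43 measured members and lower in 2, with a median of 0.35. As shares these are 27.9% and 4.65%, beside 7.0% and 7.19% of all genes. Rps7 read 11.21, 10.93 and 10.94 against 9.74, 9.78, 9.90 and 9.70 (1.25, SE 0.14, adjusted p = 5.61e-08), and the X-linked Rps4x read 10.23, 9.97 and 10.00 against 9.01, 9.06, 9.07 and 8.90 (1.06, SE 0.15). The number that rose was 17 in the values as deposited and 6 after median centring, and between 5 and 11 with 1 array left out. It was 6 without SCNT replicate 1, 5 without SCNT replicate 3 and 7 without parthenogenetic replicate 4. Translation factors rose in 12 of 51 and fell in 4 (median 0.11), which are 23.5% and 7.84% of that list. With any 1 of the 7 arrays left out 0 to 2 fell. After median centring 8 rose and 5 fell (median -0.01). The release factor gene Gspt2, an intronless copy that encodes eRF3b, read 11.04, 10.98 and 11.12 against 9.18, 9.14, 9.40 and 9.23 (1.81, SE 0.20, adjusted p = 1.84e-08), while its other probe set differed by -0.46. Eif3c, a subunit of the initiation factor eIF3, was higher by 1.19 (SE 0.23), and Eef1a1, the main elongation factor, was not called (0.10, SE 0.07).

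**Figure D3:**
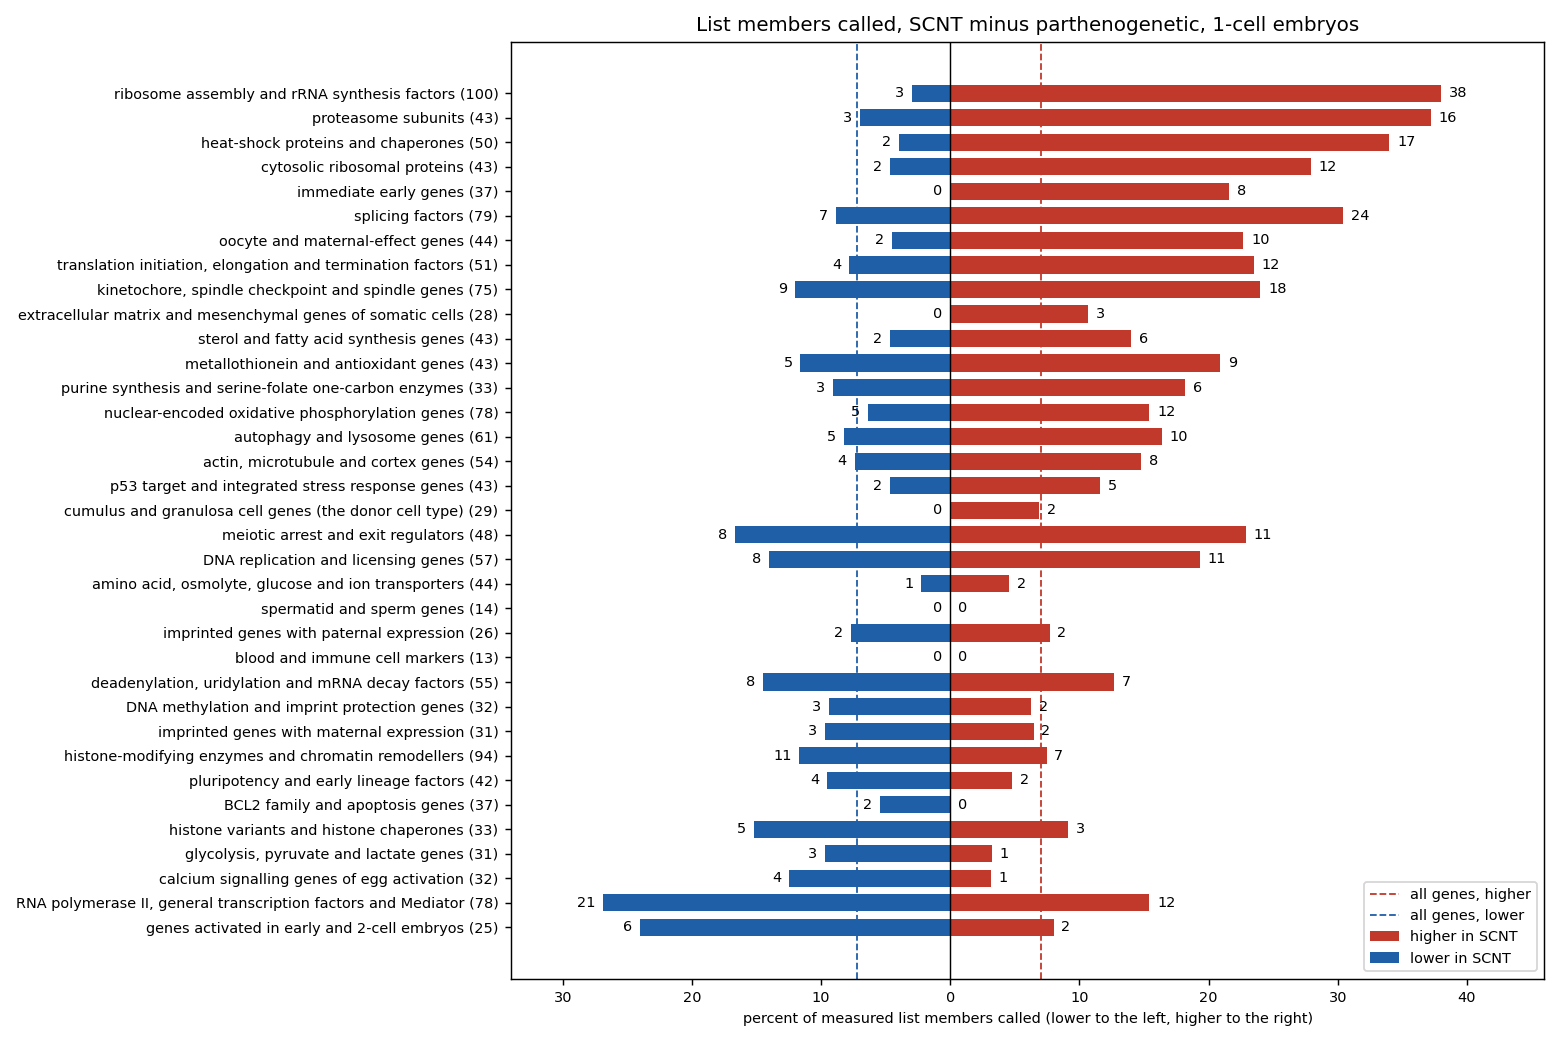
Percent of the measured members of 35 gene lists called higher (red, to the right) or lower (blue, to the left) in SCNT than in parthenogenetic 1-cell embryos, with numbers of genes at the bars and list sizes in parentheses. Dashed lines are all genes (7.0% higher, 7.19% lower); ribosome assembly factors reach 38.0% higher and RNA polymerase II factors 26.9% lower.

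Proteasome subunits, which degrade ubiquitinated proteins, rose in 16 of 43 measured members and fell in 3, with a median of 0.26. As shares these are 37.2% and 6.98%, beside 7.0% and 7.19% of all genes. Psmd14, the deubiquitinating subunit of the lid, read 9.35, 9.00 and 9.10 against 7.79, 7.72, 7.94 and 7.75 (1.35, SE 0.17, adjusted p = 2.98e-07). Psma6, of the core ring, read 11.49, 11.14 and 11.43 against 10.17, 10.05, 10.21 and 10.01 (1.24, SE 0.17). Its 2 other probe sets differed by 0.137 and 0.905. Psme4, the activator PA200 that is not part of the standard particle, went the other way, with 11.42, 11.45 and 11.43 against 12.03, 11.95, 12.07 and 12.09 (-0.60, SE 0.12, adjusted p = 0.000243). The 3 SCNT values of Psme4 were nearly equal. Fertilized embryos averaged 8.45 ± 0.15 for Psmd14, 10.63 ± 0.20 for Psma6 and 11.26 ± 0.26 for Psme4 (SD, n = 4).

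Splicing factors rose in 24 of 79 and fell in 7, although the median of the list was 0.02, that of all genes. The 24 and 7 are 30.4% and 8.86% of the list, beside 7.0% and 7.19% of all genes. After median centring 18 rose and 13 fell. Clk1, a kinase of SR proteins whose own transcript is spliced under stress control, read 10.48, 10.30 and 10.18 against 8.52, 8.47, 8.39 and 8.65 (1.81, SE 0.13, adjusted p = 2.46e-13), and Hnrnpk, an RNA-binding protein, read 11.02, 11.21 and 10.85 against 9.24, 9.38, 9.63 and 9.06 (1.70, SE 0.21). Ptbp2, a repressor of neuronal exons, fell, with 10.27, 10.11 and 10.17 against 11.14, 10.93, 11.04 and 11.11 (-0.87, SE 0.13, adjusted p = 3.25e-06). Its other probe set differed by 0.20.

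The machinery of RNA polymerase II stood apart from these lists, because more of it was lower than higher. Of 78 subunits, general transcription factors and Mediator subunits 12 rose and 21 fell (median -0.05), and 10 to 14 rose and 19 to 26 fell under the other scalings. The 12 and 21 are 15.4% and 26.9% of the list, beside 7.0% and 7.19% of all genes. Taf2, a subunit of TFIID, read 8.33, 8.43 and 8.26 in SCNT against 9.21, 9.22, 9.15 and 8.92 in parthenogenetic embryos (-0.78, SE 0.12, adjusted p = 7.2e-06), and Med27, of Mediator, read 7.98, 8.25 and 8.15 against 9.02, 9.12, 9.02 and 9.02 (-0.92, SE 0.16). Mediator subunit Med17 was higher, with 10.91, 10.72 and 10.93 against 9.35, 9.25, 9.15 and 9.31 (1.59, SE 0.28), as was Polr2b, the second largest subunit of the polymerase (1.34, SE 0.24). None of these 4 overlapped between groups. The complexes thus held members that moved in both directions.

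Among genes of energy supply, oxidative phosphorylation rose in 12 of 78 and fell in 5 (median 0.14), and after median centring rose in 12 and fell in 9. Ndufc2, of complex I, read 10.11, 9.75 and 9.76 against 8.68, 8.52, 8.56 and 8.48 (1.31, SE 0.30), while Atp5b, the catalytic subunit of ATP synthase, fell, with 10.30, 10.81 and 10.64 against 11.45, 11.42, 11.40 and 11.61 (-0.89, SE 0.16). For Ndufc2, 1 of 3 other probe sets differed by -0.13. Glycolysis and pyruvate genes had 1 increase and 3 decreases in 31, among them Mpc1, a subunit of the mitochondrial pyruvate carrier, at 8.25, 8.12 and 8.53 against 9.59, 9.63, 9.51 and 9.36 (-1.22, SE 0.21), and Pdha1, of pyruvate dehydrogenase (0.78, SE 0.16). In purine and one-carbon synthesis 6 of 33 rose and 3 fell, or 3 and 4 after median centring, and 1 fell without SCNT replicate 1. Gmps, which makes GMP, read 10.32, 10.01 and 10.13 against 8.22, 8.35, 8.33 and 8.60 (1.78, SE 0.18, adjusted p = 3.88e-09), with another probe set at -0.26. Sterol and fatty acid genes rose in 6 of 43 and fell in 2 (median 0.00), led by Elovl5, a fatty acid elongase (1.59, SE 0.20), and Scd1, the stearoyl-CoA desaturase. Scd1 read 6.73, 6.46 and 6.76 against 5.19, 5.58, 5.28 and 4.75 (1.45, SE 0.24), and fertilized embryos had the parthenogenetic level, 5.21 ± 0.34 (SD, n = 4). Autophagy and lysosome genes rose in 10 of 61 and fell in 5, of which 2 to 3 were left without SCNT replicate 1 or parthenogenetic replicate 1 or 2. Transporters rose in 2 of 44 and fell in 1 (1 and 3 after median centring), Slc3a2, the heavy chain of amino acid exchangers (-0.88, SE 0.13). Of all genes 7.0% rose and 7.19% fell. The shares were 15.4% and 6.41% for oxidative phosphorylation, 3.23% and 9.68% for glycolysis and 18.2% and 9.09% for purine and one-carbon synthesis. They were 14.0% and 4.65% for sterol and fatty acid genes, 16.4% and 8.20% for autophagy and lysosome genes and 4.55% and 2.27% for transporters.

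Cell-cycle genes changed in both directions. Of 48 regulators of meiotic arrest and exit 11 rose and 8 fell, and after median centring 8 rose and 13 fell. Anapc4, of the anaphase-promoting complex, read 11.37, 11.07 and 11.09 against 10.12, 10.03, 10.06 and 9.89 (1.15, SE 0.16, adjusted p = 2.13e-06), while Anapc10 of the same complex read 10.49, 10.51 and 10.66 against 11.41, 11.45, 11.35 and 11.26 (-0.81, SE 0.14). Another probe set of Anapc4 differed by only 0.33. Ccnb2, a B-type cyclin, was lower by a difference of -0.74 (SE 0.16), Ccnb3, a cyclin of anaphase in meiosis, higher by 0.98 (SE 0.27), and Mos, the kinase that holds the egg in metaphase, was not called (0.22, SE 0.26). Kinetochore and spindle genes rose in 18 of 75 and fell in 9, or 12 and 14 after median centring. Tacc3, a protein of spindle microtubules, read 11.21, 10.96 and 11.06 against 9.53, 9.62, 9.61 and 9.54 (1.5, SE 0.18, adjusted p = 7.27e-08), and Haus4, of the augmin complex, read 9.61, 9.91 and 9.83 against 10.79, 10.63, 10.80 and 10.83 (-0.98, SE 0.19). Replication genes rose in 11 of 57 and fell in 8, or 9 and 11 after median centring, and 5 fell without SCNT replicate 1 or 4. Among them were the GINS subunit Gins1 at 9.12, 8.67 and 8.79 against 7.30, 7.57, 7.23 and 7.14 (1.55, SE 0.29) and the licensing factor Cdc6 at 8.90, 8.69 and 8.76 against 6.88, 7.34, 7.46 and 7.42 (1.51, SE 0.40). Calcium signalling genes rose in 1 of 32 and fell in 4, but with 1 array left out 0 to 2 rose, and 1 to 2 fell without any SCNT array or parthenogenetic replicate 1, 2 or 3. Cytoskeletal genes rose in 8 of 54 and fell in 4, or 5 and 9 after median centring, and 5 rose without SCNT replicate 1 or 3 or parthenogenetic replicate 2, while 2 fell without SCNT replicate 3.

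Oocyte and maternal-effect transcripts were a little more often higher in SCNT embryos, with 10 of 44 rising and 2 falling, at a median of 0.04. After median centring 6 rose and 4 fell. The 10 and 2 of the main fit are 22.7% and 4.55% of the list, beside 7.0% and 7.19% of all genes. Members of the subcortical maternal complex of the egg were among those that rose: Nlrp5 read 12.34, 12.45 and 12.27 against 11.76, 11.67, 11.44 and 11.55 (0.75, SE 0.10, adjusted p = 8.32e-07), Padi6 11.60, 11.82 and 11.76 against 10.72, 10.66, 10.70 and 10.85 (0.99, SE 0.13), and Khdc3 8.20, 8.19 and 8.19 against 7.24, 7.44, 7.37 and 7.30 (0.85, SE 0.19). Fertilized embryos averaged 12.34 ± 0.03, 11.93 ± 0.07 and 8.53 ± 0.27 for Nlrp5, Padi6 and Khdc3 (SD, n = 4). H1f8, the linker histone of the oocyte, which is replaced by somatic H1 during development, fell to 8.84, 8.88 and 8.53 in SCNT against 9.65, 9.76, 9.83 and 9.63 in parthenogenetic embryos (-0.97, SE 0.18, adjusted p = 0.000146), with 10.08 ± 0.22 in fertilized ones. Dppa3, a maternal protector of methylation (-0.27, SE 0.12), and Zar1, a maternal mRNA regulator (0.26, SE 0.15), were not called. Of 55 mRNA decay factors 7 rose and 8 fell, or 4 to 5 without SCNT replicate 1 or 3 or parthenogenetic replicate 3. The 7 and 8 are 12.7% and 14.5% of that list. Tob1, which recruits the CCR4-NOT deadenylase, was higher by 1.02 (SE 0.19), and the deadenylase Cnot7 fell, with 11.96, 11.84 and 11.84 against 12.48, 12.59, 12.53 and 12.32 (-0.60, SE 0.10, adjusted p = 3.8e-05). Btg4, another recruiter of that deadenylase in the egg, was abundant and not called (-0.16, SE 0.09).

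On the other side, Tktl1, an X-linked transketolase-like gene, led the decreases among genes without a clone-type symbol. It read 3.68, 4.37 and 3.18 on the SCNT arrays, near background, against 8.48, 8.71, 8.66 and 8.53 on the parthenogenetic arrays, a difference of -4.85 (SE 0.34, adjusted p = 3.99e-13). Its 2 other probe sets differed by -2.43 and -1.60. Fertilized embryos averaged 5.97 ± 0.18 (SD, n = 4), between the groups. Ddx43, an RNA helicase known from germ cells and tumours, read 4.00, 4.45 and 4.76 against 6.35, 6.38, 6.47 and 6.11 (-1.93, SE 0.31). B3gnt4, a glycosyltransferase, read 4.95, 4.49 and 4.69 against 6.45, 6.48, 6.64 and 6.97 (-1.92, SE 0.39), and Sfn, the 14-3-3 protein sigma, read 3.59, 3.63 and 4.80 against 5.79, 5.99, 5.99 and 5.81 (-1.89, SE 0.48, adjusted p = 0.00443). The SCNT levels of all 4 lie under the median signal, where the added constant affects the difference (with the larger constant that of Sfn was -1.23). Thoc2l (-1.75, SE 0.34) and the zinc finger gene Zfp37 (-2.04, SE 0.50, or -1.19 with the larger constant) also fell.

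Several of these decreases concerned genes of the earliest embryonic program. Duxf3, a double homeobox gene whose protein switches on genes of the 2-cell stage, read 4.43, 5.15 and 4.89 in SCNT against 7.22, 7.33, 7.10 and 7.59 in parthenogenetic embryos (-2.49, SE 0.29, adjusted p = 6.48e-08). The groups did not overlap, and fertilized embryos averaged 5.99 ± 0.22 (SD, n = 4). Of 25 measured genes known to be activated in early and 2-cell embryos 2 rose and 6 fell, with a median of -0.30, and under the other scalings 1 to 2 rose and 6 to 7 fell. Of this list 24.0% fell, beside 7.19% of all genes, and the share that rose was close to the 7.0% of all genes. Without SCNT replicate 4 the decreases numbered 3. Ubtfl1, a relative of the polymerase I factor UBF, read 5.94, 5.56 and 5.94 against 7.43, 7.63, 7.35 and 7.60 (-1.69, SE 0.39), and Pramel7 read 3.91, 4.07 and 5.44 against 6.54, 5.92, 6.62 and 6.09 (-1.82, SE 0.30). In the Pramel family, which was grouped after its values were seen, 4 of 11 measured genes fell and 1 rose, with Pramel18 at 2.95, 3.10 and 4.82 against 6.56, 6.16, 6.13 and 5.99 (-2.59, SE 0.40, adjusted p = 8.04e-06, or -1.64 with the larger constant). Arg2, an arginase of mitochondria, rose, with 11.97, 11.72 and 11.93 against 10.67, 10.68, 10.79 and 10.76 (1.15, SE 0.11, adjusted p = 2.28e-09). Ubtfl1 averaged 4.74 ± 1.12 and Pramel7 4.53 ± 0.70 in fertilized embryos (SD, n = 4), near or below the SCNT level, and with amanitin Ubtfl1 in SCNT embryos fell to 3.65 against 5.81 without it (adjusted p = 0.0029). Pluripotency factors rose in 2 of 42 and fell in 4, or 1 without SCNT replicate 4. The 2 and 4 are 4.76% and 9.52% of that list, near the shares of all genes. Pou5f1, the factor OCT4, read 10.15, 10.39 and 10.15 against 10.56, 10.61, 10.66 and 10.59 (-0.37, SE 0.12, adjusted p = 0.022), a call lost without SCNT replicate 1 or 4 or parthenogenetic replicate 3 (-0.34, -0.33 and -0.36, adjusted p = 0.112, 0.103 and 0.0566).

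**Figure D4:**
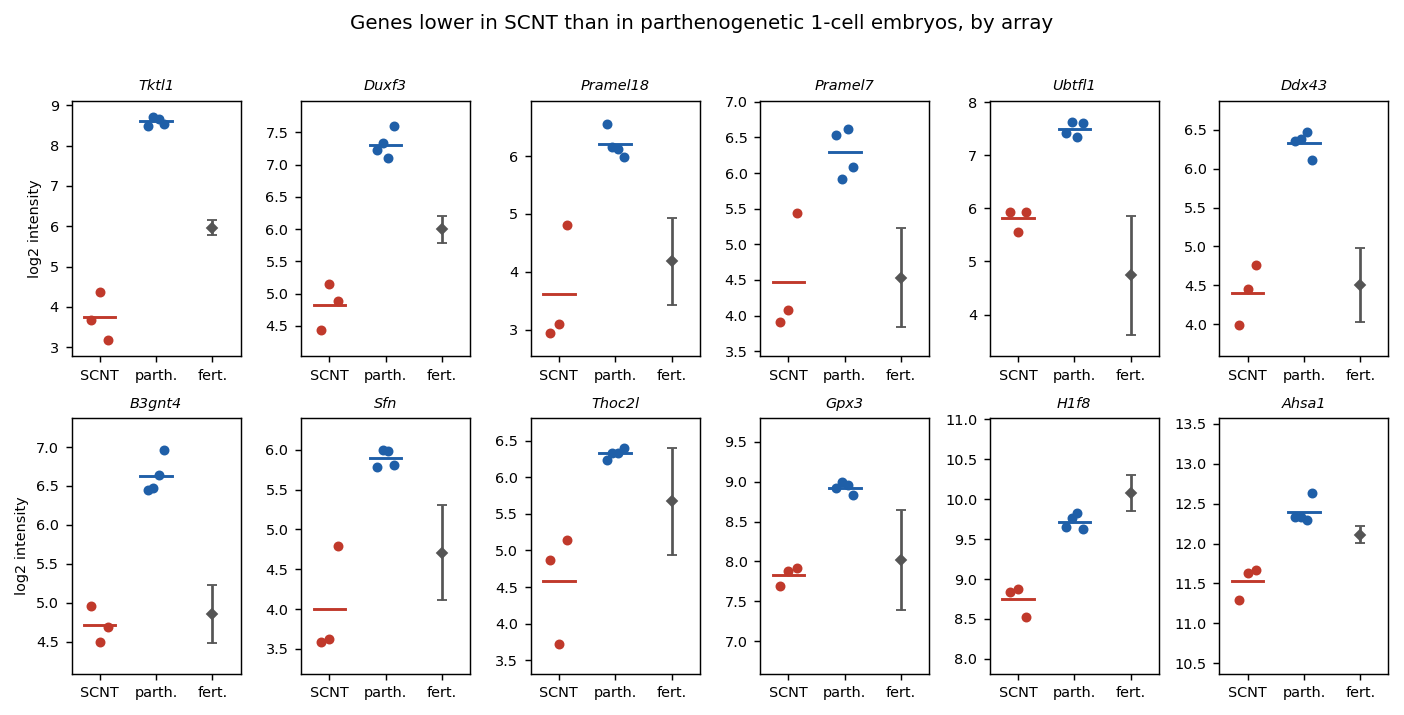
Log2 intensity of 12 genes lower in SCNT embryos, with each SCNT (red, 3) and parthenogenetic (blue, 4) array as a point, group means as lines, and the mean and SD of 4 fertilized arrays in grey. All SCNT points lie below all parthenogenetic points in each panel, as for Tktl1 at 3.18 to 4.37 against 8.48 to 8.71. The 12 were picked among genes called lower, so this separation is no added support.

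Transcripts of the donor cell were looked for with markers of cumulus and granulosa cells. Of 11 such markers 6 were above the median signal on all SCNT arrays and 5 on all parthenogenetic arrays, and their intensities summed to 616 to 702 units in SCNT against 417 to 591 in parthenogenetic embryos. Among 10 tested, 1 rose and 0 fell. That gene was Inhba, a subunit of inhibin and activin, which read 5.29, 5.46 and 5.22 against 3.97, 3.40, 3.38 and 4.02 (1.63, SE 0.49, adjusted p = 0.0188). With the larger added constant it differed by 0.97 and Hsd3b1 by 1.37. It lost its call without SCNT replicate 1 or 3 or parthenogenetic replicate 2 or 3 (1.65, 1.56, 1.53 and 1.53, adjusted p at most 0.0685). Has2, the hyaluronan synthase of the cumulus matrix, read 5.54, 5.51 and 4.99 against 5.60, 5.07, 4.94 and 5.50 (0.07, SE 0.26), and Tnfaip6, which crosslinks that matrix, 5.61, 5.25 and 5.38 against 4.48, 4.51, 4.33 and 4.23 (1.03, SE 0.39, adjusted p = 0.0769). In the wider list of 29 cumulus and granulosa genes 2 rose and 0 fell (5 and 1 at an unadjusted p under 0.05). These 2 are 6.90% of the list, near the 7.0% of all genes that were called higher. Beside Inhba, Hsd3b1, an enzyme of steroid synthesis, was the other (2.05, SE 0.53, adjusted p = 0.0053, but 1.71 and 0.0573 without SCNT replicate 3). Inhba and Hsd3b1 did not pass a filter on the 7 compared arrays or on the mean of all arrays, under which 0 of the list rose, and 4 rose in the values as deposited. Without SCNT replicate 3 the increases numbered 0, and without SCNT replicate 1 or parthenogenetic replicate 2 they numbered 1. Of 28 matrix and mesenchymal genes 3 rose and 0 fell (6 and 0 unadjusted): S100a6, a calcium-binding protein, read 4.92, 5.12 and 5.17 against 2.98, 3.22, 3.72 and 2.95 (1.85, SE 0.43, all under the median signal, and 0.99 to 2.84 with other added constants), and Lamb1, a laminin chain, 9.91, 10.11 and 9.87 against 9.45, 9.43, 9.18 and 8.94 (0.71, SE 0.17). The third, Igfbp7 (0.86, SE 0.23, adjusted p = 0.00853), had 0.79 and 0.0504 without SCNT replicate 4. These 3 matrix and mesenchymal genes are 10.7% of their list, beside 7.0% of all genes. None of 13 blood and none of 14 spermatid genes was called by limma, in either direction. At an unadjusted p under 0.05 each list had 1 gene, Cd74 and Odf2, both lower.

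A group of small, mostly X-linked genes, formed after their values were seen, was mostly higher in SCNT embryos. Of 7 measured Bex and Tceal genes 5 rose and 0 fell, beside 7.0% and 7.19% of all genes. The differences of the 7 ran from -0.39 to 2.65. Tceal9 read 6.56, 5.66 and 6.15 in SCNT against 3.33, 4.15, 3.31 and 3.08 in parthenogenetic embryos (2.65, SE 0.45, adjusted p = 4.35e-05), Bex3 5.18, 6.09 and 6.50 against 4.17, 4.00, 4.40 and 4.04 (1.77, SE 0.32), and Bex4 6.50, 6.49 and 6.40 against 4.58, 4.99, 4.61 and 4.73 (1.74, SE 0.39). No SCNT array overlapped a parthenogenetic one in these 3. With the larger added constant Tceal9 differed by 1.68. Fertilized embryos averaged 4.18 ± 0.70 for Tceal9 and 4.15 ± 0.49 for Bex3, near the parthenogenetic levels, and 5.74 ± 0.44 for Bex4 (SD, n = 4). With amanitin the SCNT means were 5.89, 5.95 and 6.76. On the X chromosome as a whole 29 of 479 genes rose and 48 fell, 6.05% and 10.0%, with a median of -0.08.

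Xist, the RNA that coats and silences an inactive X chromosome, read 7.47, 7.28 and 7.54 in SCNT against 6.43, 6.33, 6.69 and 6.54 in parthenogenetic embryos (0.93, SE 0.20, adjusted p = 0.000723). A female cumulus nucleus has an inactive X chromosome, and an egg nucleus has none. Fertilized embryos averaged 6.91 ± 0.31 (SD, n = 4), and SCNT embryos with amanitin 7.38. Of 26 imprinted genes with paternal expression 2 rose and 2 fell, and of 31 with maternal expression 2 rose and 3 fell, close to the shares among all genes. The paternal list had 0 to 2 increases and 0 to 1 decreases with 1 array left out, and no increase without SCNT replicate 1. Asb4, a maternally expressed ubiquitin ligase subunit, fell to 8.30, 8.48 and 8.16 against 9.35, 8.99, 9.32 and 9.19 (-0.90, SE 0.16, adjusted p = 7.04e-05), and Ampd3, an AMP deaminase, to 9.82, 9.63 and 9.66 against 10.44, 10.51, 10.60 and 10.33 (-0.77, SE 0.16). Another probe set of Asb4 differed by -0.32 and another of Kcnq1ot1, given next, by 0.16. Kcnq1ot1, the paternal antisense RNA of a chromosome 7 cluster, read 5.96, 5.62 and 5.62 against 4.72, 4.44, 3.65 and 3.88 (1.56, SE 0.43, adjusted p = 0.00945, but 1.45 and 0.0552 without SCNT replicate 1, and 1.03 with the larger added constant). The paternally expressed Peg3 (-0.40, SE 0.21) and the maternally expressed Igf2r (-0.16, SE 0.29, another probe set at 0.56) were not called.

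Chromatin genes were called in both directions. Of all genes 7.0% rose and 7.19% fell, against 7.45% and 11.7% of the histone modifiers and remodellers. The shares were 9.09% and 15.2% for histone variants and chaperones and 6.25% and 9.38% for DNA methylation genes. Of 94 histone modifiers and remodellers 7 rose and 11 fell (4 rose without SCNT replicate 1 or 4 or parthenogenetic replicate 1 or 3, and 7 fell without SCNT replicate 4 or parthenogenetic replicate 4), of 33 histone variants and chaperones 3 rose and 5 fell, and of 32 genes of DNA methylation and imprint protection 2 rose and 3 fell (0 fell without SCNT replicate 1 or parthenogenetic replicate 2, and 1 without SCNT replicate 3). After median centring 2 histone modifiers rose and 16 fell, and 0 histone variants and chaperones rose and 6 fell. The clearest was Dnmt1, the maintenance DNA methyltransferase, of which the egg holds its own isoform. It read 10.90, 10.70 and 10.73 in SCNT against 9.24, 9.53, 9.50 and 9.56 in parthenogenetic embryos (1.32, SE 0.22, adjusted p = 3.91e-05), with no overlap between the groups. Fertilized embryos averaged 10.92 ± 0.53 (SD, n = 4). Dnmt3b, a de novo methyltransferase, was not called (0.10, SE 0.16, another probe set at -0.52), and neither was Zfp57, a zinc finger protein that guards imprints (0.74, SE 0.40, adjusted p = 0.255). Sirt2, a deacetylase of tubulin and histones, fell to 4.12, 4.04 and 4.92 against 6.23, 6.52, 5.18 and 6.48 (-1.74, SE 0.39). The polycomb genes Ezh2 (-0.03, SE 0.07) and Suz12 (-0.01, SE 0.10) were not called, and 5 other probe sets of Suz12 ranged from -0.53 to 0.13. Beta-actin, often used as a reference, fell by 0.49 (Actb, SE 0.14, adjusted p = 0.0114), or by 0.45 with adjusted p = 0.0621 without SCNT replicate 1, and its other probe set differed by 0.04.

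The 2-cell stage, with 4 SCNT and 4 parthenogenetic arrays, shares no array with the comparison above. There limma called 8135 of 14916 genes (54.5%), 3639 higher (24.4%) and 4496 lower (30.1%) in SCNT embryos. Of the 1044 genes higher at the 1-cell stage 504 were also higher at the 2-cell stage, which is 48.3% of the 1-cell and 13.8% of the 2-cell list, and 299 (28.6% of the 1-cell list) were lower there. Of the 1073 genes lower at the 1-cell stage 717 were also lower at the 2-cell stage, 66.8% and 15.9% of the lists, and 139 (13.0%) were higher. The poly(A) control transcripts read 7.46 to 8.47 on the 2-cell SCNT arrays against 7.04 to 7.10 on the 2-cell parthenogenetic arrays. At the 1-cell stage they were lower on the SCNT arrays. Handling of the arrays and stage thus cannot be told apart in changes between the stages, including those given below. The SCNT minus parthenogenetic difference changed with the stage in 6026 genes (40.4%). Among those whose difference was not shown to change, Sgk1 was higher at both stages, by 2.99 and 3.83, as were Tceal9 (2.65 and 3.87), Hint1 (2.01 and 2.48) and Xist (0.93 and 0.78), and Ddx43 was lower at both (-1.93 and -2.91). The proteasome and ribosome lists had more increases at the 2-cell stage than at the 1-cell stage, with 35 of 43 proteasome genes (median 1.48), 37 of 43 ribosomal proteins (1.34) and 72 of 100 assembly factors (0.99) higher.

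Several stress genes differed between the stages. Hspa1b was higher in SCNT embryos at the 1-cell stage by 1.72 and lower at the 2-cell stage by a difference of -1.72, an interaction of -3.44 (SE 0.26, adjusted p = 1.01e-13). Klf10 went to -3.81 and Ier3 to -2.50 at the 2-cell stage (adjusted p = 7.4e-17 and 2e-11). Mt2 remained higher by 0.90 and Mt1 by 1.25, less than at the 1-cell stage (interactions of -1.59 and -1.32, adjusted p = 1.19e-06 and 0.00885). Hspa5 was higher by 1.33 at the 2-cell stage, close to the 1.40 of the 1-cell stage (interaction adjusted p = 0.85). Pramel7 and Sfn, lower in 1-cell SCNT embryos, were higher at the 2-cell stage, by 0.77 and 1.59 (interactions of 2.59 and 3.48, adjusted p = 2.11e-06 and 2.64e-05). Duxf3 was lower at both stages, by -2.49 and -0.74, with an interaction of 1.75 (SE 0.40, adjusted p = 0.000391). Of 44 oocyte transcripts 10 were higher and 2 lower at the 1-cell stage. At the 2-cell stage 7 were higher and 32 lower, beside 24.4% and 30.1% of all genes. Zar1, not called at the 1-cell stage (0.26), was lower at the 2-cell stage (-2.03).

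**Figure D5:**
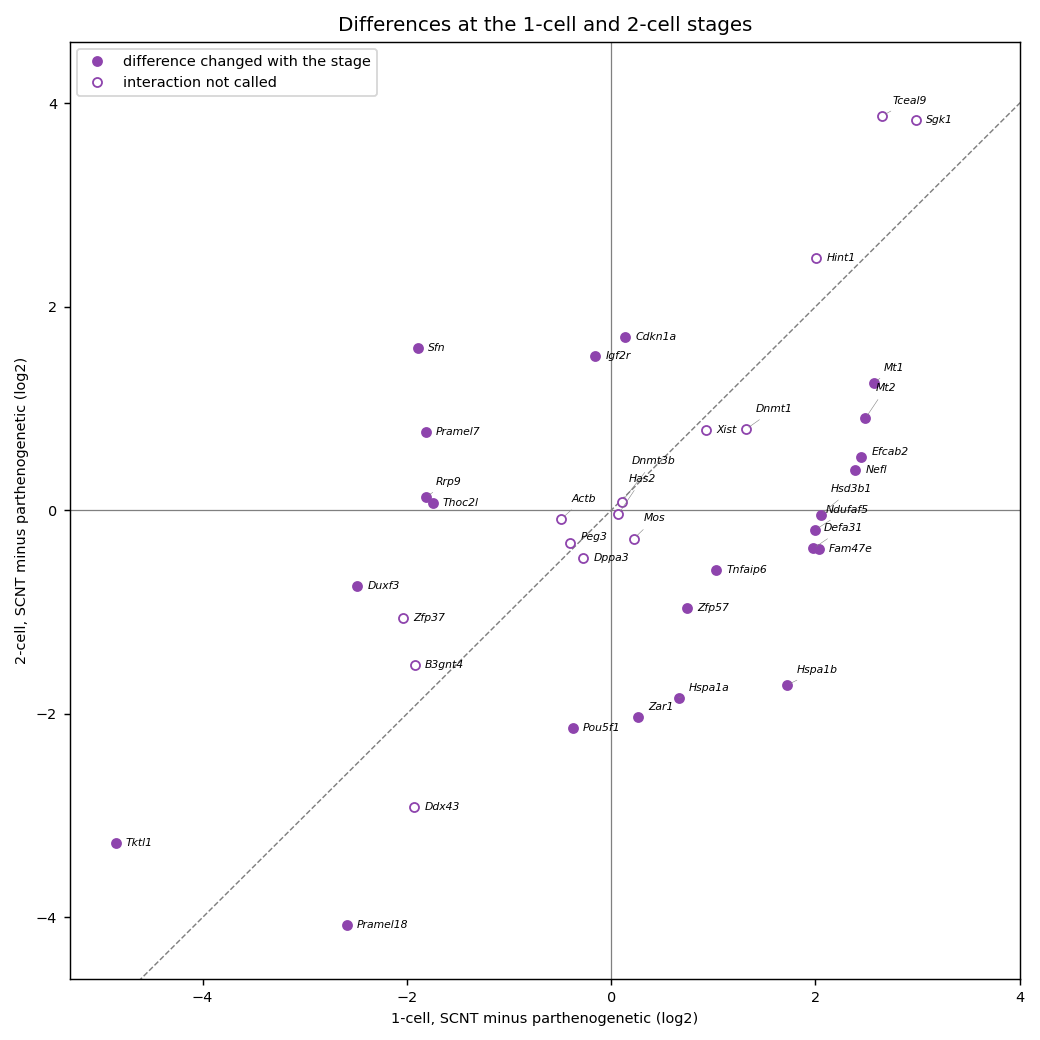
SCNT minus parthenogenetic difference (log2) at the 1-cell stage (horizontal) and the 2-cell stage (vertical) for the genes with the largest 1-cell changes and the fixed genes; filled points are genes whose difference changed with the stage, and the dashed line marks equal differences. Sgk1 and Tceal9 lie above 2.6 on both axes, and Hspa1b lies at 1.72 and -1.72.

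In cloned 1-cell embryos 64 of 14916 genes (0.429%) were called between amanitin and untreated SCNT arrays. These untreated arrays are the same as those of the main comparison, so the values are given side by side. The 3' minus 5' difference of beta-actin was 2.02 to 3.22 on the amanitin arrays, against 2.20 to 2.36 on the untreated ones. That of Gapdh was 2.22 to 2.83 against 2.32 to 2.56. Its effect on these values was not tested. Scd1 averaged 5.20 with and 6.65 without amanitin (adjusted p = 0.00077), against 5.20 in parthenogenetic embryos. Gadd45g averaged 5.66 and 7.24 (adjusted p = 0.0095), against 5.71, and Tsr1 8.35 and 9.13 (adjusted p = 0.0074), against 7.50. In these 3 genes the level with the inhibitor was below the untreated one, and in Scd1 and Gadd45g it was close to the parthenogenetic mean. Mt2 averaged 8.90 and 9.32, Hspa1b 8.53 and 8.92 and Dnaja1 11.69 and 11.75, none of them called (adjusted p at least 0.47), against 6.83, 7.20 and 10.16 in parthenogenetic embryos. Sgk1 averaged 7.32 and 7.75, against 4.77, and Nfkbia 12.28 and 12.24, against 10.34. In these 5 genes the amanitin level was above the parthenogenetic mean. Fos averaged 6.18 with and 7.33 without the inhibitor, a difference that missed the threshold (adjusted p = 0.072).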

How the data were processed

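The deposited values are linear Affymetrix probe-set intensities, which the authors had scaled so that the trimmed mean (2% at each end) is 150 on every array. The software and version are not given in the sources used here. Per the labels' protocols, poly(A) RNA was extracted with PicoPure kits and labelled with an Enzo kit. Array number and brightness over background limit the precision.

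From these, log2(value + 6.9) was taken, 6.9 being the 20th percentile of all values, and the 39 arrays were quantile normalized, since their medians ran from 4.92 to 5.74. A filter kept the 31153 of 45101 probe sets that exceeded 5.34, the median of all values, on 4 or more arrays, and 64 controls were left out. Of all probe sets 34945 name 1 gene, 932 several and 9160 none, in the platform annotation. The brightest probe set stood for each of 14916 genes, 14818 of which matched RefSeq symbols. Of the 101 called genes named, 45 had other kept probe sets, and 8 had a probe set of opposite sign. Limma 3.58.1 (R 4.3.3) fitted group means to all 39 arrays (29 residual degrees of freedom) with trended empirical Bayes and Benjamini-Hochberg adjustment at 0.05. The steps were tested on simulated data.

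The genes named are the 12 largest increases and the 12 largest decreases whose groups do not overlap, without predicted-gene or clone-type symbols, up to 4 called members of a list in each direction and up to 2 not called, and 24 fixed genes, of which 18 were measured. Not every gene the rule gives is named, and 12 genes were added after their values were seen. Members and lists were chosen with earlier results of these data known. Replicate numbers gave no pairing. Alternatives covered the filter, scaling, constant, probe-set rule, model, block and single arrays.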

Additional observations from a re-analysis of the deposited data

Results flagged for a closer look

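A single array lay apart from the other 3 of the parthenogenetic group for 4 of 123 groups of values examined. These were Hint1 at 8.43 and Fam47e at 4.93 and Ahsa1 at 12.64 on replicate 4, and Med27 at 9.12 on replicate 2. Chance alone sets apart about 1 in 20 groups.

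The SCNT minus parthenogenetic difference changed with the stage, by limma's interaction, in 6026 genes, among them 23 of the 37 leading and fixed genes and 57 of the 83 other genes named. The 2-cell difference minus the 1-cell difference was negative for these genes that were higher in 1-cell SCNT embryos: Mt1 -1.32, Mt2 -1.59, Efcab2 -1.93, Nefl -1.99, Hsd3b1 -2.09, Fam47e -2.41, Ndufaf5 -2.19, Defa31 -2.35 and Hspa1b -3.44. It was positive for Tktl1 at 1.59, Duxf3 at 1.75, Sfn at 3.48, Pramel7 at 2.59, Rrp9 at 1.95 and Thoc2l at 1.82, all lower in 1-cell SCNT embryos, and negative for Pramel18 at -1.49. It was positive but not called for Sgk1 at 0.85, Tceal9 at 1.22 and Hint1 at 0.47. The leading genes were chosen for extreme 1-cell differences, a choice that by itself favours an interaction of opposite sign. Among fixed genes it was 1.67 for Igf2r, -1.7 for Zfp57, -2.29 for Zar1, -1.77 for Pou5f1, -2.5 for Hspa1a, 1.57 for Cdkn1a and -1.61 for Tnfaip6.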

How the results depend on the processing

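The count of 2117 called genes (1044 higher, 1073 lower) was 3561 (1774 and 1787) with array weights, 3708 (1852 and 1856) when only the 7 compared arrays were fitted, and 1750 to 2751 under the filters, scalings, constants, probe-set mean, untrended fit and fit of 19 arrays. Replicate numbers did not pair the samples, since residuals of same-numbered arrays correlated at -0.05 to 0.01. A replicate block gave 3140 calls over the 7 arrays (1601 higher, 1539 lower) and 2086 over all arrays, the last chosen after seeing the data. Leaving out 1 array gave 1434 to 1818 calls, 723 to 919 higher and 711 to 917 lower, the fewest without SCNT replicate 1. The 2-cell count stayed at 7383 to 8255 and the interaction at 5511 to 6691 in every setting run. Of 101 called genes named, none reversed under an alternative in which it was measured, which was 97 under the filter on the 7 arrays and 88 under that on the mean of all arrays. Averaging probe sets ended 4 calls (Hspa4, Apaf1, Kcnq1ot1 at 0.86 and Actb at -0.23), median centring ended 2 (Egr1 at 0.50 and Ooep at 0.37) and the untrended fit 1, Ooep. The cause was not tested.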

Other observations

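The lowest fitted difference of all genes was that of BC080696, a gene with a clone-type symbol, which was outside the naming rule and was chosen after its values were seen. It read 3.70, 3.29 and 3.31 on the SCNT arrays, near background, against 9.19, 9.62, 9.53 and 9.29 on the parthenogenetic arrays (-5.97, SE 0.34, limma adjusted p = 1.39e-15). Since the SCNT values are near background the size depends on the added constant, and was -6.91 and -4.74 with a smaller and a larger one. Fertilized embryos averaged 8.41 ± 0.49 (SD, n = 4), and at the 2-cell stage the difference was -4.76. Among the oocyte markers, Zp3, a protein of the egg coat, read 9.51, 9.49 and 9.45 in SCNT against 8.96, 8.89, 9.00 and 8.91 in parthenogenetic embryos (0.54, SE 0.12). Ooep, of the subcortical maternal complex, read 13.11, 13.11 and 12.99 against 12.64, 12.62, 12.73 and 12.67 (0.40, SE 0.13), a call lost without SCNT replicate 1 or 3 or parthenogenetic replicate 1 or 2 (0.38 to 0.40, adjusted p 0.0551 to 0.0951), and at the 2-cell stage differed by -1.57.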
